A study of Mus musculus with 21 samples.

Results

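The genes described here are 39 type I interferon-stimulated and antiviral genes, chosen by symbol and found among the 45664 gene symbols of the count table. All 39 were among the 22294 genes that passed the filter on low counts, so none was left untested. RNA came from the ventral pons after the facial nerve of the right side was cut where it leaves the skull. This block of brainstem holds the facial nucleus, where the motor neurons of the cut axons lie, together with parts of neighbouring reticular and trigeminal nuclei. The 21 libraries form 7 groups of 3. In 6 groups the tissue came from the lesion side or the contralateral side 7, 14 or 30 days after surgery at 8 weeks of age. In the day 0 group it came from the contralateral pons of unoperated mice aged 8 weeks. Every mouse was C57BL/6 and CX3CR1GFP/wt, meaning that a green fluorescent reporter replaces 1 copy of the microglial receptor gene Cx3cr1, so all groups lack an animal with 2 intact copies. Age rises with the day after surgery and has no unoperated control beyond day 0. The count column names also carry a sequencing label (an L followed by a number) that changes with the day. The sides of a day share it, days 0 and 7 have the same label, and days 14 and 30 each have their own. Some index sequences recur on days 0 and 7 under that label, so those libraries cannot be a single pool.

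Type I interferons bind a receptor whose kinases phosphorylate STAT proteins, STAT2 among them. STAT2 joins IRF9 in a complex that binds a short DNA motif, the interferon-stimulated response element, and switches on a large set of antiviral genes. In the brain, microglia, astrocytes and neurons can all respond, and low expression without infection is usual.

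The promoters of members show how much of this motif is visible in the sequence. Of the 39 members, 27 were matched by symbol to a RefSeq promoter window of GRCm38.p6. The core of the element, searched on both strands as GAAA, any 2 bases and GAAA, lay in the 250 bases before the RefSeq start of 9 of these 27 (33.3%) against 3.46% of 27025 genes. The 9 are Stat2, Ifit1, Ifit3, Oas1a, Oas3, Isg15, Trim30a, Rsad2 and Bst2. A match is a string of letters and no measured binding site. The windows of Stat2, Oas1a and Bst2 are printed because these 3 members have the core and passed the test on at least 1 day, and those of Isg15, Ifit1 and Rsad2 were added after their values were seen. Each runs 5′ to 3′ on the strand of the gene, with the core element in capitals (read from the other strand it is TTTC, any 2 bases and TTTC).
Stat2, chr10:128270248-128270497, plus strand: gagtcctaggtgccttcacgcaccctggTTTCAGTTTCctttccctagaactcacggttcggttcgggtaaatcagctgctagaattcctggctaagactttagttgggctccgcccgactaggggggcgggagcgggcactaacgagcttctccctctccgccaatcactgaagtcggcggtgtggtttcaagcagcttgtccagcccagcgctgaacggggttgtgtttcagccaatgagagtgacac
Oas1a, chr5:120907526-120907775, minus strand: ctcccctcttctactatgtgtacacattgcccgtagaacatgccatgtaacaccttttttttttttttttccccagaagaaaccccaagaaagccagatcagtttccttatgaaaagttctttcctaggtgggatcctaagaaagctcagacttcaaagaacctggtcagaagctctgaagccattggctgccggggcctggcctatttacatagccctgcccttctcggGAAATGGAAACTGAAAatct
Bst2, chr8:71537473-71537722, minus strand: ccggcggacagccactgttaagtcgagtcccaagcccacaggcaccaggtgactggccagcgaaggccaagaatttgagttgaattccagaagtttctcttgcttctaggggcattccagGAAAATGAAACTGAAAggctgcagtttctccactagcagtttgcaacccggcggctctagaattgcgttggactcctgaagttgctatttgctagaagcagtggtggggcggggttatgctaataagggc
Isg15, chr4:156200819-156201068, minus strand: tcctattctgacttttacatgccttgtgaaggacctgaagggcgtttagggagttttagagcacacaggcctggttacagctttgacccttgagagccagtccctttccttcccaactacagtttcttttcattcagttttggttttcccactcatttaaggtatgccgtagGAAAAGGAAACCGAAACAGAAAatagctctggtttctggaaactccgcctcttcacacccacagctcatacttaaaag
Ifit1, chr19:34640639-34640888, plus strand: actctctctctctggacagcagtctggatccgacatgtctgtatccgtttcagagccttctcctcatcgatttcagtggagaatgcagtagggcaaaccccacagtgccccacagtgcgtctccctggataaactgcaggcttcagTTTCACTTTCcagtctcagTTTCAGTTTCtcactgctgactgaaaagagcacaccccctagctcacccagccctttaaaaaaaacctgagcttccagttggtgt
Rsad2, chr12:26456453-26456702, minus strand: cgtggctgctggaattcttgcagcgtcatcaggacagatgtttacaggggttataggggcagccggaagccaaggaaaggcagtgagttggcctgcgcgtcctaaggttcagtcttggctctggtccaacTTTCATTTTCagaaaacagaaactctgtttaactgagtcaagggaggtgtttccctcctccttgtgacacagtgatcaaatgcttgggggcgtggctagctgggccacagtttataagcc
In Oas1a and Bst2 the capitals hold 2 overlapping cores, in Isg15 3 overlapping cores, and in Ifit1 2 separate ones. At day 30 the median log2 difference between lesion and contralateral side was 1.52 over the 9 members with the core, of which 2 passed the test. It was 0.71 over the 18 without the core, of which 7 passed. Of all genes 1.04% passed as higher.

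Library depth was 35874913 to 41448945 counts at day 0 and 17358868 to 29827291 counts in the other groups. Levels are CPM, counts scaled to library size with TMM factors, and differences are log2 values with their standard error (SE). A gene was called higher or lower at an adjusted p under 0.05 over all genes tested. The labels do not say that each library is a separate mouse, so the p-values measure the spread between these libraries. Motor neuron markers were present in every group (summed level of 8 markers 221 to 432 CPM). The 14 microglia markers summed to 464 to 555 CPM in the 9 lesion libraries and 326 to 394 CPM in the other 12, with no overlap, also at day 30, where the columns were assigned to sides by the sample descriptions. Lesion day 7 replicate 3 carried choroid plexus and ependyma markers at 4610 CPM, against 83.9 and 98.1 CPM in the other libraries of its group. At day 14 these markers were uneven too. Contralateral replicate 3 had 980 CPM against 164 and 101 CPM, and lesion replicate 2 had 419 CPM against 138 and 60.9 CPM.

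By their medians, the members were higher on the lesion than on the contralateral side on every day, most of all at day 30. At day 7, 5 members were called higher and none lower, where 1.56% of all genes tested were called higher and 0.0942% lower. At day 14, 6 members were called higher and none lower (2.58% and 1.31% of all genes), and at day 30, 12 were called higher and none lower (1.04% and 0.121% of all genes). DESeq2 called 10, 13 and 31 members higher (1.83%, 4.01% and 1.3% of the genes it gave an adjusted p). The median log2 difference of the 39 members was 0.69, 0.83 and 1.23 at days 7, 14 and 30, against -0.01, 0 and 0 over all genes tested. The log2 difference was above 0 for 38, 37 and 39 members. Each count depended on single libraries. At day 7 it was 2, 4 and 2 without lesion replicates 1, 2 and 3 (1.25%, 1.22% and 1.39% of all genes higher). It was 3, 2 and 1 without contralateral replicates 1, 2 and 3 (1.28%, 1.17% and 1.16%). At day 14 it was 3 without any 1 of the contralateral libraries. At day 30 it was 19 and 5 without lesion replicates 1 and 3 and 7, 6 and 5 without contralateral replicates 1, 2 and 3. For these fits of days 14 and 30 no share of all genes is given. In bulk tissue, more cells that express these genes and more RNA per cell cannot be told apart.

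Separation of the sides was more frequent than calls. At day 7 all 3 lesion libraries were above all 3 contralateral libraries for 33 of 39 members (7.26% of all genes), and at day 30 for 36 of 39 (9.71% of all genes), the overlapping members being Dhx58, Cmpk2 and Ifi35. At day 14 this held for 13 of 39 (10.7% of all genes). Same-numbered libraries of the 2 sides deviated together on days 7 and 30, and a fit with the replicate number as a block called 25 members higher at day 30 in place of 12 (1.41% of all genes), and 6 at day 7 in place of 5 (1.93%).

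**Figure D1:**
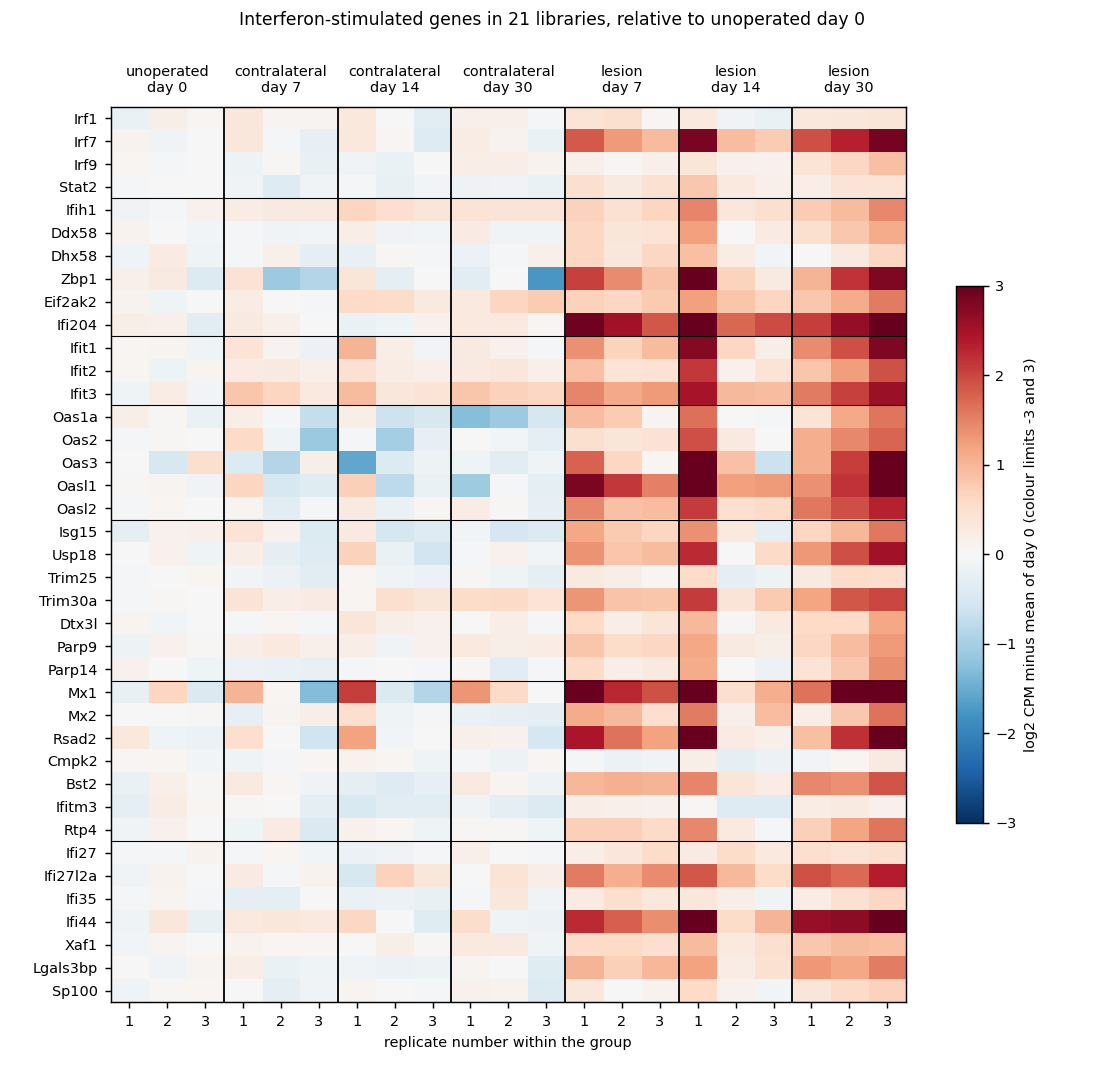
Log2 CPM of the 39 members (one line each, grouped by role between black lines) in the 21 libraries, after subtracting the mean of the 3 day 0 libraries; red is above and blue below day 0, and columns are replicates 1 to 3 of each group. The lesion libraries are red in most lines, lesion day 14 replicate 1 and lesion day 30 replicate 3 most deeply, and the contralateral libraries are near 0 for most members.

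**Figure D2:**
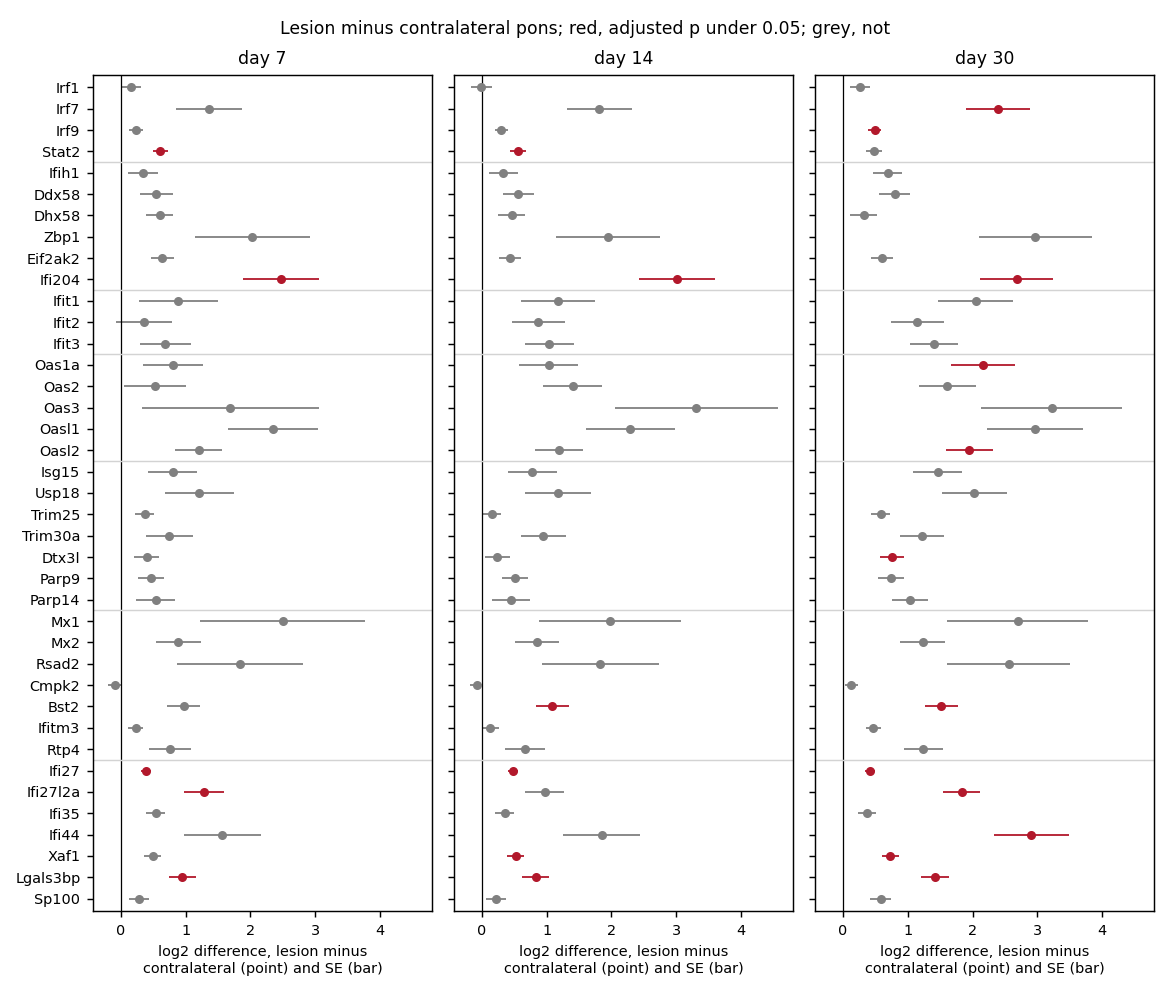
Log2 difference between lesion and contralateral side (points) with its SE (bars) for each member at days 7, 14 and 30, in the order of the roles; red members had an adjusted p under 0.05 and grey ones did not. The points lie right of 0 for 38, 37 and 39 of the 39 members, and members with the longest bars, such as Oas3 and Mx1, are not called.

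Among the 4 transcription factors, Irf7, which amplifies interferon transcription, had the largest differences. Irf7 (chromosome 7, 141262706 to 141266481) stood at 5.33, 4.64 and 4.98 CPM at day 0 and at 3.79 to 6.36 CPM in the 9 contralateral libraries. Lesion libraries read 18.1, 12.1 and 9.7 CPM at day 7, then 36.2, 9.46 and 8.54 CPM at day 14, and 19.1, 25.3 and 37.2 CPM at day 30. Every lesion library was above every other library, and the largest gap within a group was at day 14, where replicate 1 stood alone. The log2 difference was 1.36 ± 0.51 (adjusted p = 0.44) at day 7 and 1.81 ± 0.50 (adjusted p = 0.061) at day 14. It was 2.39 ± 0.49 at day 30, a 5.24-fold rise that passed the test (adjusted p = 0.027). That call was lost without lesion replicate 2 or 3, without any contralateral library of day 30 and in the fit on the compared groups alone (adjusted p of 5.4e-05 to 0.17 over the alternatives). Exons of Irf7 overlap Phrf1 on the opposite strand, and whether the counting used strand is not stated.

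STAT2 and IRF9 are parts of the complex that binds the response element. Stat2 (chromosome 10, 128270559 to 128292849) read 31.1, 32.2 and 31.9 CPM at day 0. Lesion libraries read 44, 38.6 and 43.7 CPM at day 7, 55.7, 39 and 35.5 CPM at day 14 and 36.4, 41.5 and 41.9 CPM at day 30, against 24.4 to 31.1 CPM in the 9 contralateral libraries. The sides did not overlap on any day. Stat2 rose by 0.61 ± 0.12 at day 7 (adjusted p = 0.0051) and by 0.56 ± 0.12 at day 14 (adjusted p = 0.0075, lost without contralateral replicate 2 and in the fit on the compared groups alone). At day 30 the log2 difference of 0.48 ± 0.12 missed the threshold (adjusted p = 0.0505) and passed it with the replicate block (0.0018). With all libraries, neither Stat2 nor any other member passed the test of a difference between days.

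Irf9 (chromosome 14, 55603571 to 55610030) was called at day 30 only. It read 14.4 to 15.6 CPM on the lesion side and 12.1 to 14.3 CPM on the contralateral side at day 7. At day 30 it read 18.7, 21.4 and 26.2 CPM on the lesion side against 16, 16 and 15.1 CPM, a rise of 0.49 ± 0.10 (adjusted p = 0.0086). The call was lost without lesion replicate 3 and without contralateral replicate 3. Some exon bases of Irf9 are shared with Rnf31. Irf1, a factor also driven by interferon gamma, spanned only 5.02 to 8.91 CPM over all 21 libraries and had log2 differences of 0.16, -0.01 and 0.26.

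Of the 6 RNA and DNA sensors, Ifi204 was called on all 3 days. Ifi204 (chromosome 1, 173747293 to 173766943) belongs to the DNA-binding PYHIN family. It read 0.438 to 0.663 CPM at day 0 and 0.489 to 0.732 CPM in the contralateral libraries. In the lesion libraries it read 4.91, 3.73 and 2.33 CPM at day 7, 9.21, 2.08 and 2.48 CPM at day 14, and 2.69, 4.04 and 6.71 CPM at day 30. Lesion libraries were all at least 2.08 CPM and all others at most 0.732 CPM. The gene rose by 2.47 ± 0.59 at day 7 (adjusted p = 0.046), 3.01 ± 0.59 at day 14 (0.0075) and 2.68 ± 0.57 at day 30 (0.028), which is 5.53-fold, 8.04-fold and 6.40-fold. The day 7 call was lost without any library of either side except lesion replicate 3, and the day 30 call without any library except lesion replicate 1. Both were lost with limma-voom, and the day 7 call also without the filter on low counts. The day 14 call was lost only when the other groups were left out of the fit. Of its 50-base stretches, 20% also occur in other genes, 14.8% in Ifi211, so reads may be shared among these relatives.

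The other 5 sensors had positive log2 differences on every day and none was called. Zbp1, a sensor of left-handed nucleic acid that can trigger cell death, had the largest at day 30, 2.97 ± 0.87 (adjusted p = 0.19, 0.024 with the replicate block), on levels of 1.11 to 4.08 CPM against 0.0939 to 0.507 CPM. Eif2ak2, the kinase PKR that halts translation on double-stranded RNA, differed by 0.64 ± 0.18 at day 7 and 0.61 ± 0.17 at day 30. Its adjusted p was 0.098 and 0.12, and 0.00036 and 0.00046 with the replicate block. Ifih1, Ddx58 and Dhx58, the cytoplasmic RNA helicases MDA5, RIG-I and LGP2, had log2 differences of 0.69, 0.80 and 0.32 at day 30, and Ifih1 alone of these passed with the block (adjusted p = 0.038).

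None of the 3 IFIT genes, whose proteins bind foreign RNA, was called on any day. Their medians were 0.69, 1.04 and 1.41 at days 7, 14 and 30. Ifit2, the most abundant of them by CPM, stood at 12.2 to 14.3 CPM at day 0 and at 15 to 18.7 CPM in the contralateral libraries. On the lesion side it read 25, 18 and 18.3 CPM at day 7, 59.2, 14.9 and 18 CPM at day 14, and 24.4, 32.3 and 51.3 CPM at day 30. At day 14 replicates 2 and 3 did not exceed the highest contralateral library, and replicate 1 stood apart. The log2 difference at day 30 was 1.15 ± 0.41 (adjusted p = 0.41). Ifit1 and Ifit3 spread in the same way, at day 14 with 37, 8.38 and 6.13 CPM for Ifit1 and 44, 15.6 and 15.1 CPM for Ifit3, and 51.2% of the 50-base stretches of Ifit3 occur in Ifit3b.

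The OAS family holds enzymes that make oligoadenylates in response to double-stranded RNA, and relatives of these enzymes. It had the highest median of the 7 roles at day 30, 2.16, with 2 of 5 called higher (1.04% of all genes). Oasl2 (chromosome 5, 114896936 to 114912234) read 9.36, 10.3 and 9.83 CPM at day 0 and 7.67 to 11.9 CPM in the contralateral libraries. Its lesion values were 26.7, 18.3 and 18.8 CPM at day 7, 42.5, 14 and 14.7 CPM at day 14, and 29.7, 37.6 and 48.6 CPM at day 30. No lesion library overlapped any other library. Oasl2 rose by 1.95 ± 0.36 at day 30 (adjusted p = 0.013), a call lost without lesion replicate 3 and without contralateral replicate 2 or 3.

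Oas1a (chromosome 5, 120896256 to 120907521) was a low-level gene whose sides separated at day 30 only. There it read 1.58, 2.68 and 3.74 CPM against 0.433, 0.507 and 0.799 CPM, while day 0 read 1.33, 1.19 and 1.01 CPM. It rose by 2.16 ± 0.49 against the contralateral side (adjusted p = 0.031) and by 1.16 ± 0.40 against day 0 (adjusted p = 0.044). The contralateral call was lost without any library of day 30 except lesion replicate 1, without the filter on low counts and with limma-voom. Of its 50-base stretches, 57.6% occur in other genes, so its counts are uncertain. Oasl1, which in mice restrains the translation of IRF7, was not called (2.96 ± 0.74 at day 30, adjusted p = 0.08). With the replicate block it had the smallest p of all members on days 7 and 30 (adjusted p = 3.3e-06 and 6e-07), on 1.65 to 5.49 CPM against 0.241 to 0.563 CPM at day 30. Oas2 and Oas3 differed by 1.61 and 3.22 at day 30 and were not called. With the replicate block 4 of the 5 OAS genes were called higher at day 30 (1.41% of all genes). The contralateral libraries of day 30 held 3, 2 and 3 Oas3 counts.

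The 7 genes of ISG15 conjugation and ubiquitin or ADP-ribose transfer had a median of 1.03 at day 30, with Dtx3l called. Dtx3l (chromosome 16, 35926511 to 35939151), a ubiquitin ligase that works with PARP9, read 10.9, 10.9 and 16.2 CPM on the lesion side and 7.27, 8.27 and 6.86 CPM on the contralateral side. At day 0 it read 6.84 to 7.67 CPM. It rose by 0.76 ± 0.19 (adjusted p = 0.049), at the edge of the threshold. The call was lost without lesion replicate 3 or any contralateral library, without the filter on low counts, with other size factors and with limma-voom. Parp9, whose exons overlap those of Dtx3l on the opposite strand, differed by 0.74 ± 0.20 (adjusted p = 0.08).

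ISG15 is a small modifier that is joined to proteins as ubiquitin is, and USP18 removes it and also dampens the interferon receptor. Isg15 read 6.23, 7.9 and 12.1 CPM on the lesion side at day 30 against 3.71, 2.76 and 2.96 CPM, a log2 difference of 1.46 ± 0.38 (adjusted p = 0.11, 0.0011 with the block). Usp18 read 6.84, 10.8 and 16.3 CPM against 2.7, 2.98 and 2.58 CPM, a difference of 2.03 ± 0.50 (adjusted p = 0.085, 0.00036 with the block). For both the sides did not overlap at day 30. Trim25, Trim30a and Parp14 differed by 0.58, 1.22 and 1.03 at day 30 and were not called. With the replicate block 5 of the 7 genes of this role were called higher at day 30 (1.41% of all genes).

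Of the 7 membrane-bound, dynamin-like and virus-restricting effectors, Bst2 was called. Its day 30 call held in all 13 refits (other tools, filters, size factors, groups in the fit, the replicate block and each library left out), but its difference is below the study's log2 threshold of 1.7. Bst2 (chromosome 8, 71534255 to 71537456) encodes tetherin, which holds budding virus particles at the cell surface. It read 5.13, 6.58 and 6.09 CPM at day 0 and 4.52 to 7.13 CPM in the contralateral libraries. On the lesion side it read 11.8, 12.5 and 12.1 CPM at day 7, 16.5, 7.59 and 6.89 CPM at day 14, and 16.2, 15.4 and 22.1 CPM at day 30. The sides did not overlap on any day, but at day 14 replicates 2 and 3 were far below replicate 1. Bst2 differed by 0.97 ± 0.26 at day 7 (adjusted p = 0.082), rose by 1.09 ± 0.26 at day 14 (0.029, lost without any contralateral library of that day and in the fit on the compared groups alone) and rose by 1.52 ± 0.25 at day 30 (0.0028), which is 2.87-fold.

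Rsad2 and Cmpk2 are divergent neighbours 12752 bases apart on chromosome 12 with unlike values. Rsad2 encodes viperin, an enzyme that makes a chain-terminating nucleotide, and Cmpk2 a mitochondrial nucleotide kinase. Rsad2 read 12.1, 6.92 and 5.13 CPM on the lesion side at day 7, 29.3, 2.57 and 2.41 CPM at day 14, and 4.14, 10.2 and 23.1 CPM at day 30, against 1.41 to 5.14 CPM on the contralateral side. Cmpk2 spanned 33.1 to 48.2 CPM over all 21 libraries, with log2 differences of -0.09, -0.08 and 0.13. Rsad2 was not called (2.56 ± 0.95 at day 30, adjusted p = 0.44), and the spread among its lesion libraries was wide.

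Mx1 and Mx2 belong to a family of dynamin-like GTPases. Whether their transcripts give working protein in this strain was not tested. Mx1 read 0.909, 2.5 and 5.69 CPM on the lesion side at day 30 against 0.722, 0.394 and 0.235 CPM (2.70 ± 1.09, adjusted p = 0.54). Mx2, annotated as a polymorphic pseudogene, differed by 1.23 ± 0.35 (adjusted p = 0.13, 0.015 with the block). Ifitm3, which blocks virus entry at endosomes, and Rtp4, a receptor transporter protein, differed by 0.47 ± 0.12 and 1.24 ± 0.30 at day 30. Neither was called (adjusted p = 0.076 and 0.065, and 0.011 and 0.022 with the block).

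Of the last 7 genes, 3, 3 and 5 were called higher at days 7, 14 and 30 (1.56%, 2.58% and 1.04% of all genes). Ifi27 and Ifi27l2a, small hydrophobic proteins of one family, are neighbours 1928 bases apart on chromosome 12. Ifi27 (103434211 to 103440239), the highest of the members per kilobase of transcript (37.8 ± 2.32 CPM per kilobase at day 0, SD, n = 3), read 52.7, 54.3 and 59.2 CPM at day 0. On the lesion side it read 63.5, 70.2 and 80.5 CPM at day 7, 65.4, 80.8 and 68.1 CPM at day 14, and 78.7, 73.8 and 77.5 CPM at day 30, against 48.8 to 61.9 CPM on the contralateral side. The rise was small and steady, with no overlap between the sides. Ifi27 rose by 0.39, 0.48 and 0.42 (each ± 0.08), with adjusted p of 0.006, 0.00047 and 0.0043. The day 14 and day 30 calls held in all 13 refits, with differences below the log2 threshold of 1.7, and the day 7 call was lost without lesion replicate 3 or contralateral replicate 3. Unlike 38 other members, Ifi27 had its highest day 14 value in replicate 2.

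Ifi27l2a (103442167 to 103443680) was lower and rose further. It read 2.04, 2.37 and 2.22 CPM at day 0, and on the lesion side 6.64, 4.78 and 6.03 CPM at day 7, 8.25, 4.39 and 3.24 CPM at day 14, and 8.45, 7.36 and 11.6 CPM at day 30. The contralateral libraries read 1.57 to 3.58 CPM, and the sides overlapped at day 14. It rose by 1.29 ± 0.31 at day 7 (adjusted p = 0.033) and 1.83 ± 0.29 at day 30 (adjusted p = 0.0015). With the replicate block both calls ended (adjusted p = 0.27 and 0.064). The day 7 call was also lost without any library of that day except lesion replicate 2 and without the filter on low counts.

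Lgals3bp (chromosome 11, 118392751 to 118402092), a secreted glycoprotein that binds galectins, was called on all 3 days. It read 29.2, 27.1 and 30.7 CPM at day 0 and 22.5 to 33 CPM in the contralateral libraries. On the lesion side it read 58.3, 47.3 and 57.9 CPM at day 7, 66.4, 33.7 and 39.7 CPM at day 14, and 70.8, 65 and 84.1 CPM at day 30. Every lesion library was above every other library. It rose by 0.95 ± 0.21 (adjusted p = 0.025), 0.83 ± 0.21 (0.038) and 1.42 ± 0.21 (0.0014). The day 30 call held in all 13 refits, below the log2 threshold of 1.7. The day 7 call ended with the replicate block (0.12) and without lesion replicate 1 or 3 or contralateral replicate 2 or 3. The day 14 call ended without any contralateral library of that day and in the fit on the compared groups alone. It also ended with the block (0.079), though the numbers were not taken to pair the sides on that day.

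Ifi44 (chromosome 3, 151730922 to 151749960), a cytoplasmic protein of poorly known function, had the largest rise among the called members at day 30. It read 1.26 to 1.92 CPM at day 0 and 1.14 to 2.35 CPM on the contralateral side. Its lesion values were 7.33, 5.38 and 4.05 CPM at day 7, 13.3, 2.23 and 3.12 CPM at day 14, and 9.6, 9.99 and 17.1 CPM at day 30. The sides were apart on days 7 and 30 and overlapped at day 14. Ifi44 rose by 2.91 ± 0.58 at day 30 (adjusted p = 0.019), 7.49-fold, a call lost without lesion replicate 3 or any contralateral library.

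Xaf1 (chromosome 11, 72301629 to 72313733), a partner of the apoptosis inhibitor XIAP, read 7.9 to 8.93 CPM at day 0 and 7.7 to 10.3 CPM on the contralateral side. In the lesion libraries it read 12.5, 12.6 and 11.9 CPM at day 7, 16.3, 10.2 and 11.6 CPM at day 14, and 14.6, 16.4 and 15.7 CPM at day 30. It differed by 0.49 ± 0.13 at day 7 (adjusted p = 0.056) and rose by 0.52 ± 0.13 at day 14 (0.021) and 0.73 ± 0.13 at day 30 (0.0013). The day 14 call was lost without lesion replicate 1, without contralateral replicate 1 or 3, with limma-voom and in the fit on the compared groups alone. The day 30 call held in all 13 refits, below the log2 threshold of 1.7. Sp100, a nuclear body protein, and Ifi35 differed by 0.58 and 0.37 at day 30 and were not called.

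**Figure D3:**
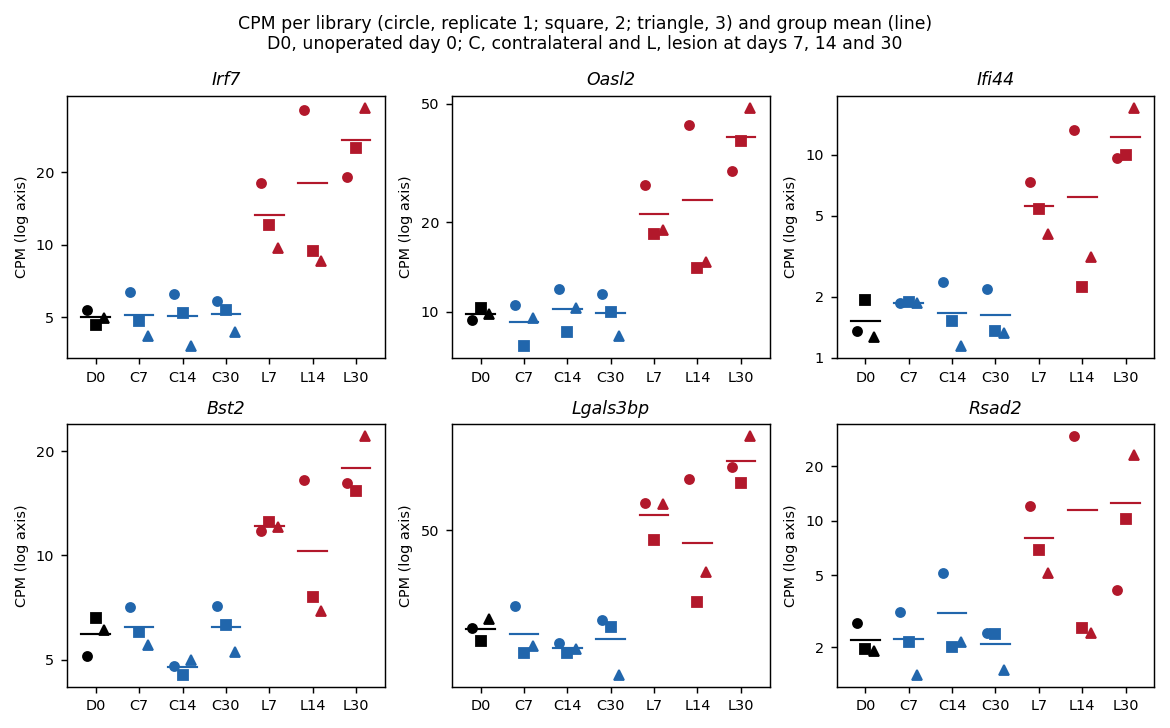
CPM of 6 members in each library on a log axis, with the group mean as a line; black is day 0, blue the contralateral and red the lesion side at days 7, 14 and 30, and symbols give the replicate number. Irf7, Oasl2 and Lgals3bp lie higher in every lesion library than in any other, and lesion day 14 replicate 1 (circle) stands apart from replicates 2 and 3 in all 6 panels, at 29.3 against 2.57 and 2.41 CPM for Rsad2.

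At day 14, replicate 1 of the lesion side was the highest library of its group for 38 of 39 members. For 20 members it was more than 2-fold above the middle library. The median ratio of the highest to the lowest lesion library was 2.55 at day 14, against 1.19 over the 15480 genes above 1 CPM. It was 1.32 at day 7 and 1.64 at day 30, where replicate 3 was highest for 35 of 39 members, against 1.14 and 1.11 over all these genes. The median of the members relative to day 0 was 1.46 in lesion day 14 replicate 1 and 0.30 and 0.25 in replicates 2 and 3.

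Without lesion day 14 replicate 1 the day 14 median fell to 0.25, and 5 members were called in place of 6, while the share of all genes called higher went from 2.58% to 4.58%. Stat2 (0.34 ± 0.09, adjusted p = 0.015), Ifi204 (2.04 ± 0.37, 0.001), Bst2 (0.60 ± 0.16, 0.018), Ifi27 (0.53 ± 0.09, 0.00023) and Lgals3bp (0.49 ± 0.14, 0.032) remained, and Xaf1 was lost (0.31 ± 0.11, 0.092). Rsad2 went from 1.83 to -0.32 and Ifit1 from 1.18 to -0.03, while Ifi204 kept most of its difference. This library was picked out by the members' own values, so a lower median without it follows from that choice. The members differed widely in how far the day 14 value rested on this library.

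**Figure D4:**
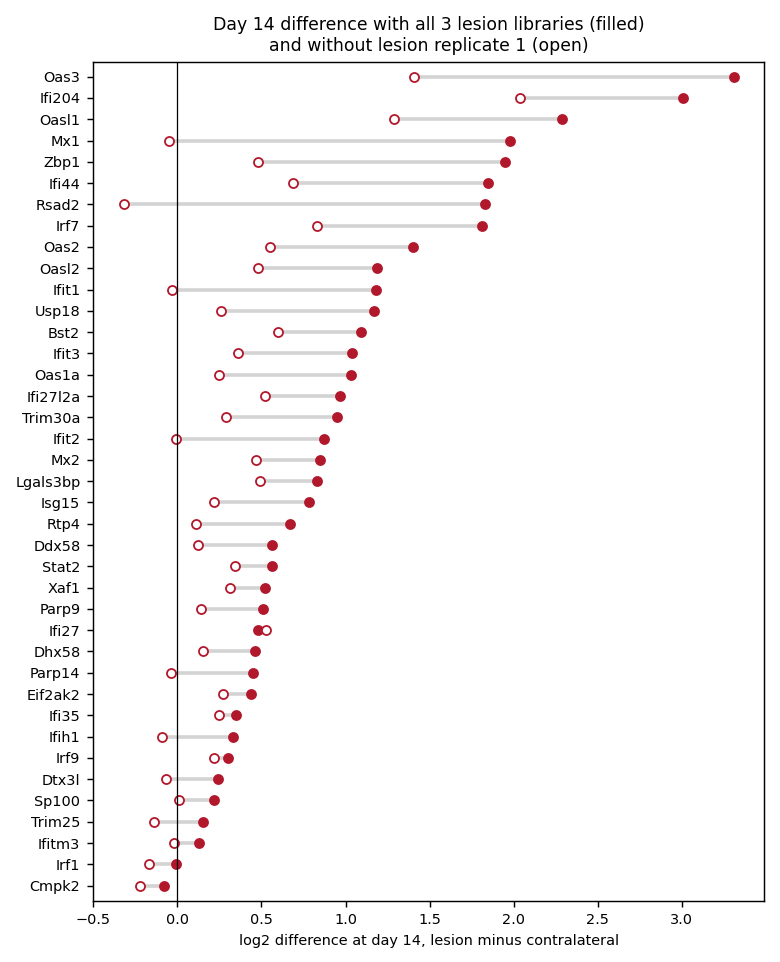
Log2 difference between lesion and contralateral side at day 14 for each member, with all 3 lesion libraries (filled) and without lesion replicate 1 (open), ordered by the filled value. The open points lie left of the filled ones except for Ifi27, and their median is 0.25 against 0.83.

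Whether the lesion effect differed between days was tested as an interaction. No member was called for any of the 3 pairs of days, by edgeR, DESeq2 or limma-voom, and none had an unadjusted p under 0.05 in edgeR. For day 14 minus 7, day 30 minus 7 and day 30 minus 14, edgeR and limma-voom called 0% of all genes higher, and edgeR called 0%, 0.0269% and 0.0807% lower. DESeq2 called 0.00449%, 0.00585% and 1.55% higher, the last of only 4573 genes to which it gave an adjusted p. A member without an adjusted p was counted as not called. For day 30 minus 14 the absence of DESeq2 calls is therefore no test of such members. The median change was -0.01 from day 7 to day 14, 0.47 from day 7 to day 30 (35 of 39 above 0) and 0.37 from day 14 to day 30 (34 above 0). Without lesion day 14 replicate 1, 14 members were called for a larger lesion effect at day 30 than at day 14 (2.14% of all genes). They were Irf7, Ifih1, Ifit1, Oas1a, Oasl2, Trim25, Trim30a, Dtx3l, Parp14, Bst2, Rtp4, Ifi27l2a, Ifi44 and Lgals3bp, with Ifi44 at 2.22 ± 0.46 (adjusted p = 0.021) and Trim25 at 0.72 ± 0.15 (adjusted p = 0.018). That library was picked out by the values of these same members. Leaving it out thus had to raise the difference for most of them, and these p-values are no test of a change between days. With all libraries no member was called, so whether the lesion effect differed between days 14 and 30 stays undecided.

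The contralateral side stayed near the unoperated level for most members. Medians against day 0 were -0.01, 0.02 and 0.02 at days 7, 14 and 30. At day 7 no member was called by edgeR or had an unadjusted p under 0.05 (6.84% of all genes were called higher and 3.66% lower). At day 14 Ifitm3 was called lower, 13.8 ± 0.695 CPM against 18 ± 3.29 CPM (SD, n = 3), by -0.39 ± 0.12 (adjusted p = 0.031), where 9.09% of all genes were called higher and 6.73% lower. At day 30 Eif2ak2 was called higher, 14 ± 2.31 CPM against 9.32 ± 0.816 CPM, by 0.58 ± 0.17 (adjusted p = 0.024), where 9.32% of all genes were called higher and 6.81% lower. Both shares of members are below the background. No member was called at either time without day 0 replicate 2 or 3, at day 14 without any contralateral library, or at day 30 without contralateral replicate 2 or 3. For these fits no share of all genes is given.

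Against day 0, the lesion side had 12 members called higher at day 7 (8.14% of all genes), 17 at day 14 (9.78%) and 34 at day 30 (12.7%). None was called lower, against 4.32%, 7.03% and 9.69% of all genes. The day 7 count was 7 without lesion replicate 1 or day 0 replicate 1 or 3 (7.28%, 7.19% and 6.65% of all genes higher). The day 14 count was 10, 11 and 10 without day 0 replicates 1, 2 and 3 (8.87%, 8.2% and 8.43%). It was 7 without lesion replicate 1, and the day 30 count was 18 without lesion replicate 3. For these last 2 fits no share of all genes is given. At day 14 Ifitm3 was called lower without lesion replicate 1 (-0.40, adjusted p = 0.022) and without day 0 replicate 1 (-0.39, adjusted p = 0.020). The medians were 0.68, 0.77 and 1.19. The 5 members not called at day 30 were Irf1, Dhx58, Rsad2, Cmpk2 and Ifitm3. Rsad2, at 2.49 ± 0.87, was among the larger differences and missed the threshold (adjusted p = 0.053), whereas Cmpk2 differed by 0.09 ± 0.10. These comparisons share the day 0 libraries with those of the contralateral side and share the lesion libraries with the comparison between sides. In all comparisons with day 0, on either side, surgery, day, age and sequencing pool change together and cannot be told apart.

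Other genes of the pathway were taken from lists. Interferon genes themselves were near 0: none of 10 ligand genes passed the filter, 6 had no count, and the sums over all 21 libraries were 2 counts each for Ifnb1, Ifna2 and Ifng and 1 for Ifnl3. At these counts no comparison of interferon transcripts between groups was possible. Of 18 receptor and JAK-STAT genes 5, 5 and 4 were called higher at days 7, 14 and 30 and none lower. Of all genes 1.56%, 2.58% and 1.04% were called higher. At day 30 they included Irf8, a microglial transcription factor (1.13 ± 0.18, adjusted p = 0.00058), the feedback inhibitor Socs3 (1.25 ± 0.24, 0.0039) and Irf5 (0.78 ± 0.16, 0.0063). The receptor chains Ifnar1 and Ifnar2 differed by 0.02 and 0.10 and were not called.

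Of 17 genes of nucleic acid sensing and its adaptors, 2, 2 and 3 were called higher and none lower (1.56%, 2.58% and 1.04% of all genes higher). Unc93b1, which carries endosomal toll-like receptors to their compartment, rose by 0.72 ± 0.10 at day 30 (adjusted p = 7.2e-05). The receptors Tlr9 (1.07 ± 0.23, 0.012) and Tlr7 (0.80 ± 0.20, 0.049) were called with it. The other genes of this list, Tlr3 among them, were not called at day 30. Of 40 further interferon-stimulated genes none, 4 and 9 were called higher at days 7, 14 and 30, against these same shares of all genes. Their medians were 0.40, 0.51 and 0.74. With the replicate block the counts were 3, 10 and 18, where 1.93%, 4.3% and 1.41% of all genes were called higher. At day 30 the smallest p-values belonged to B2m, the shared chain of MHC class I (1.01 ± 0.11, adjusted p = 3.5e-05), the chemokine Cxcl9 (4.31 ± 0.70, 0.0014), Ly6e (0.36 ± 0.07, 0.0026) and the helicase Ddx60 (2.00 ± 0.36, 0.0029).

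Some markers of microglia and of T and NK cells rose with the members, and those of 3 other immune lists were not called. The microglia list had 9, 8 and 7 of 14 markers called higher at days 7, 14 and 30, none at 0 in any group, and a median of 0.54, 0.60 and 0.42. Of all genes 1.56%, 2.58% and 1.04% were called higher on these days. The microglia sum was 464 to 534, 467 to 555 and 484 to 503 CPM on the lesion side and 326 to 369, 334 to 360 and 344 to 386 CPM on the contralateral side. The sum of 19 T and NK cell markers was 2.8 to 5.89, 4.91 to 7.9 and 9.58 to 13 CPM on the lesion side and 1.9 to 2.59, 1.66 to 2.54 and 1.86 to 2.55 CPM on the contralateral side. Of 15 tested markers, 1, 2 and 4 were called higher, with list medians of 0.45, 1.25 and 3.42. At lesion day 30 the chemokine Ccl5 alone gave 5.45, 4.18 and 8.51 CPM of sums of 13, 9.58 and 12.6 CPM. In lesion day 7 replicate 3 the sum was 2.8 CPM with Ccl5 at 0.733 CPM. In contralateral day 7 replicate 2 it was 2.59 CPM with Ccl5 at 0.349 CPM. Ccl5 is thus a large part of the sum at lesion day 30, and the sum was not tested as a measure of T and NK cell number. Cd8a and Cd8b1 were at 0 in all contralateral libraries of day 30. Of the plasmacytoid dendritic cell list, Tlr9 alone was called, at day 30, and Klra17 or Ly6d was at 0 in each group. None of 6 B and plasma cell markers tested was called on any day (medians 0.41, -0.09 and -0.16), nor any of 7 border macrophage markers (-0.09, -0.21 and 0.09) or 7 blood monocyte and neutrophil markers (0.45, 0.45 and 0.31). Lesion day 14 replicate 1 had the highest sum of its group for microglia (555 CPM) and T and NK cells (7.9 CPM), whereas lesion day 30 replicate 3, the highest for 35 members, did not for either. The part of these cells in the result was not tested.

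**Figure D5:**
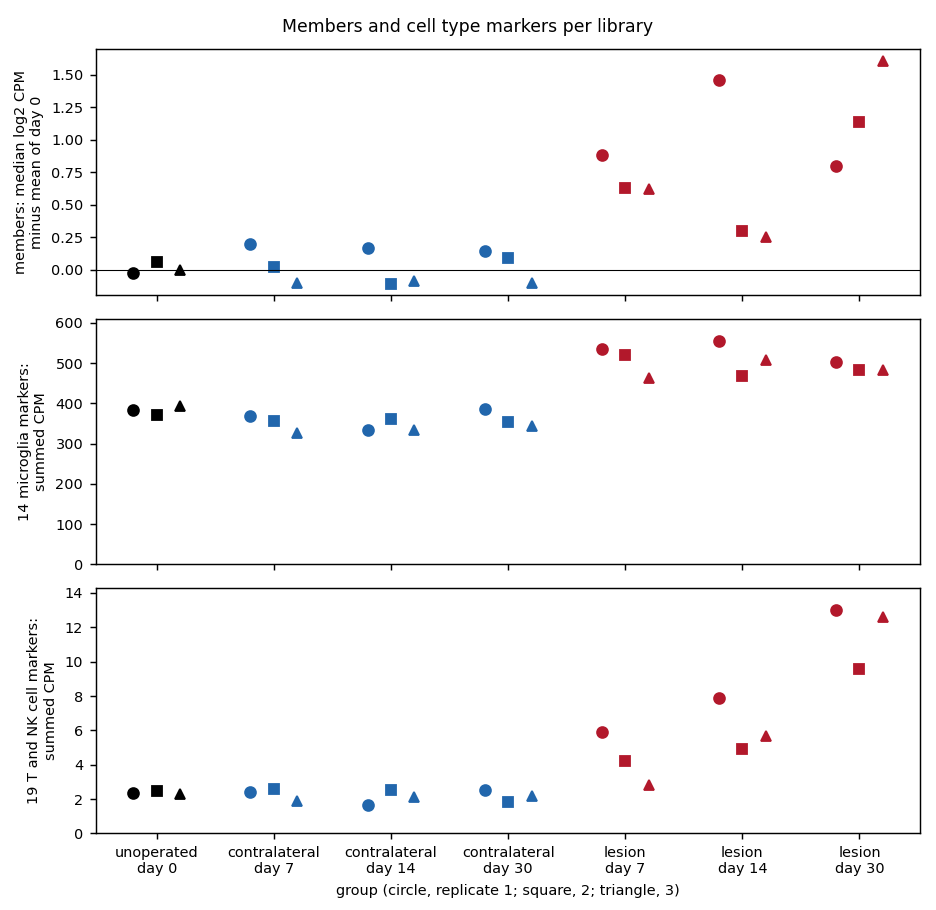
For each library, the median log2 CPM of the 39 members relative to day 0 (top), the summed CPM of 14 microglia markers (middle) and of 19 T and NK cell markers (bottom); colours mark day 0 (black), contralateral (blue) and lesion (red), and symbols the replicate number. All 9 lesion libraries lie above the others in each panel, with member medians of 0.25 to 1.61. In the bottom panel the lowest of them, 2.8 CPM with 0.733 CPM from Ccl5, is close to the highest of the others, 2.59 CPM.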

How the data were processed

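Per the submitters' processing notes and the series' design text, bases were called with CASAVA 1.8.2, reads of stranded mRNA libraries were aligned with Rsubread to GRCm38.p4 with a Gencode annotation, and counted per gene with featureCounts. The authors deposited raw counts for 45664 gene symbols and a matrix of log2 CPM from limma's voom. In all 21 libraries the deposited log2 values matched the counts of the same sample best, and for 20295 genes matched by symbol they were recomputed to within 5e-11. At day 30 the side letters of the count columns are swapped, as the sample descriptions state, and day 30 directions depend on this.

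Genes with a summed count above 29 (the 32nd percentile of 32815 genes with a count) were kept, 22294 in all. Counts were tested with R 4.3.3 and edgeR 4.0.16 by its quasi-likelihood test (two-sided, robust, TMM scaling) in 1 model of the 7 groups, with Benjamini-Hochberg adjustment over all genes of a comparison. The tests were run on simulated counts with the same relative spread for all genes, changes only in genes above 1 CPM, and no outlying library or pairing. That check does not cover members with low counts or groups with an outlying library. DESeq2 1.42.0, limma 3.58.1, other filters and size factors, fits on the compared groups, the study's log2 threshold of 1.7 and leaving out each library were alternatives. The column names carry a replicate number and a side. Over 12195 genes above a mean of 5 CPM, the deviations of same-numbered libraries correlated at 0.26 to 0.40 on day 7, -0.03 to 0.34 on day 14 and 0.27 to 0.32 on day 30 (at most 0.12 over all 22294 genes, where low counts dominate), so the numbers were taken to pair the sides on days 7 and 30. The replicate block was also fitted at day 14, where the numbers were not taken to pair the sides. Positions are from GENCODE M21 on GRCm38, and promoters from RefSeq GRCm38.p6.

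Values in every library are given for members called between the sides on any day and, in a role without one, for the member with the highest CPM. Rsad2, Cmpk2, Ifit1, Ifit3, Isg15, Usp18, Oasl1, Mx1, Irf1, Zbp1, Ifnar1 and Ifnar2 were singled out after their values were seen. The members, lists and tests were chosen with earlier results of these data known. A result for 1 gene of these lists is not reported here.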

Additional observations from a re-analysis of the deposited data

How the results depend on the processing

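Between the sides the member medians stayed above 0 in every alternative, and the number of calls varied. Between the sides, DESeq2 called 10, 13 and 31 members higher at days 7, 14 and 30, against 5, 6 and 12 with edgeR. A fit on the compared groups alone called 20, 1 and 22 (1.59%, 1.56% and 1.79% of all genes higher), and the study's log2 threshold of 1.7 left 1, 1 and 6. The replicate block called 14 at day 14 (4.3%), where the numbers were not taken to pair the sides, and 25 at day 30 (1.41%). In this section no share of all genes is given for the threshold of 1.7 or for fits with a library left out. Leaving out each library gave 1 to 4, 3 to 9 and 5 to 19. For the contralateral side against day 0, the fit on the compared groups alone called 1, 3 and 5 members. In it 5.23%, 8.37% and 8.94% of all genes were called higher, and 1 of the 5 members, Oas1a, was lower. DESeq2 and edgeR's own expression filter each called 2 at day 14, 1 higher and 1 lower (13% and 12.3% of all genes higher). The fit without the filter on low counts called 0 at day 30 (6.16% of all genes higher), and the threshold of 1.7 called 0 on both later days. Leaving out each library gave 0 to 1 at day 14 and 0 to 2 at day 30. For the lesion side against day 0, the compared groups alone gave 26 at day 7 (6.8% of all genes higher) and 4 at day 14 (5.78%). DESeq2 gave 28 at day 14 (12.5%), and the threshold of 1.7 left 3, 4 and 13. Leaving out each library gave 7 to 10, 8 to 25 and 18 to 35 calls in either direction (the 8 are 7 higher and 1 lower). For the lesion effect at day 30 minus day 14, leaving out each library gave 0 to 14.

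The day 14 median ranged from 0.25 to 1.02. Between the sides, the directions that turned were all at day 14. Leaving out each library, with the lowest value without lesion replicate 1, the log2 difference ran from -0.09 to 0.54 for Ifih1, -0.03 to 1.59 for Ifit1, -0.01 to 1.2 for Ifit2, -0.14 to 0.31 for Trim25, -0.07 to 0.42 for Dtx3l, -0.04 to 0.68 for Parp14, -0.05 to 3.99 for Mx1, -0.32 to 2.40 for Rsad2, -0.02 to 0.21 for Ifitm3, -0.17 to 0.18 for Irf1 and -0.22 to 0 for Cmpk2. With the replicate block Irf1 was at 0. The cause of these changes was not tested. No paired analysis was possible for comparisons with day 0 because those libraries are from other mice. The spread among 3 libraries limits members with few counts, such as Oas3 (209 counts in all) and Mx1 (535).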

Other observations

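In the contralateral group of day 14, the library with the number of the outlying lesion library also held the highest values of several members. Replicate 1 was highest in its group for 27 of 39 members, with Mx1 at 1.27 CPM against 0.156 and 0.0914 CPM, Rsad2 at 5.14 against 2.02 and 2.15 CPM, and Ifit1 at 11 against 6.18 and 5.07 CPM. The median of its members relative to day 0 was 0.17, against 1.46 on the lesion side. Bst2 did not follow (4.8 against 4.52 and 4.98 CPM), and Ifi27l2a was lowest there (1.57 against 3.58 and 2.83 CPM). These libraries were picked out after their values were seen.

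Relative levels per kilobase of transcript changed their order between day 0 and lesion day 30. Ifi27 and Ifitm3 led at both, with 37.8 and 26.6 CPM per kilobase at day 0 and 52.2 and 30.4 at lesion day 30. Cmpk2 stood next at day 0 (12.5 ± 0.698, SD, n = 3). At lesion day 30 (13.3 ± 1.71) it was passed by Lgals3bp (25.8 ± 3.44), Bst2 (23.5 ± 4.77), Ifit3 (19.9 ± 7.24) and Ifi27l2a (19.7 ± 4.72). Differences among the genes that passed it were not tested.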
